A study of Mus musculus with 8 samples.

Results

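Citric acid cycle enzymes of the liver were examined in male C57BL/6J mice fed amino acid defined diets. The genes were 9 named enzymes or subunits of the cycle and its cytosolic counterpart, namely Cs, Idh1, Idh2, Idh3a, Idh3b, Idh3g, Ogdh, Suclg1 and Mdh2. They were taken by symbol, and all 9 were among the 11784 genes that the authors list. Livers came from 4 mice on the Control diet (TD.140711) and 4 mice on the Low AA diet (TD.140712), in which carbohydrate takes the place of most of the amino acid calories and fat is kept nearly the same. The diets began at 9 weeks of age and lasted 4 months, and all 8 mice were fasted overnight for about 16 hours before the liver was taken. All mice were of 1 inbred strain, and the labels name no genetic alteration.

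The citric acid cycle runs in the mitochondrial matrix and oxidizes the acetyl groups that come from sugars, fats and amino acids. It passes their electrons to the respiratory chain as NADH and FADH2. In the liver its intermediates are also drawn off for making glucose, fatty acids and amino acids, and they are refilled from pyruvate and from the carbon skeletons of amino acids. Citrate synthase (Cs) condenses acetyl-CoA with oxaloacetate. Isocitrate is then oxidized to 2-oxoglutarate, either by the NAD-linked enzyme built from the subunits Idh3a, Idh3b and Idh3g, or by the NADP-linked enzymes Idh2 in mitochondria and Idh1 in the cytosol and peroxisomes. Ogdh is the first component of the 2-oxoglutarate dehydrogenase complex, Suclg1 is the alpha subunit of succinyl-CoA ligase, and Mdh2 is the malate dehydrogenase of mitochondria.

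Of the 9 members, 0 passed an adjusted p under 0.05 between the diets, where 0.399% of all genes did, and 3 had an unadjusted p under 0.05, where 11.8% of all genes did. The highest log2 fold change was that of Idh3a, whose level was 1.64 times as high on the Low AA diet, and the next were those of Cs at 1.24 times and Mdh2 at 1.18 times. The values of Idh3a and of Cs did not overlap between the diets, while those of the other 7 did. For 8 of the 9 members, all but Idh3a, the 95% interval of the fold change lay within 1.5-fold in either direction. The test was limma on log2(value + 1) over all genes with Benjamini-Hochberg adjustment. The values are called scaled read counts here, since they carry the trace of read counts multiplied by a factor and rounded. How they were scaled is not given in the sources used here. Fold changes are Low AA over Control on this scale.

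Values of all listed genes summed to between 27876664 and 30799385 scaled reads per mouse, and the 9 members together made up between 0.145% and 0.154% of this total in the Control mice and between 0.154% and 0.166% in the Low AA mice. All 6 hepatocyte markers looked up, Alb and Hnf4a among them, were listed, with log2 fold changes that had a smallest limma adjusted p of 0.717. This p compares the diets and does not measure tissue identity. Alb had between 1321262 and 1789498 scaled reads. Some of these markers varied widely among the Control mice, with Cps1 from 74154 in F2212 to 240897 in F2110. In bulk tissue, fewer cells of a type and less RNA per cell cannot be told apart. Control mouse F2212 stood apart from the other mice with 36587 scaled reads of the pancreatic gene Cela1, against 130 to 288 in the other 7, and the values of Idh3a, Ogdh, Idh1, Idh2 and the gene lists that it moved are also given without it. The erythroid and globin genes differed in level between mice too. The 4 of 5 blood markers that were listed summed to between 7206 and 27464 in the Control mice and between 9211 and 13541 in the Low AA mice. The 4 of 5 cholangiocyte markers summed to between 1124 and 2265 and between 826 and 1316. All 4 blood markers had negative log2 fold changes, with a median of -0.49, and so had all 4 cholangiocyte markers, with -0.62. All 6 macrophage markers were positive, with a median of 0.23. Stellate markers were 1 positive and 5 negative, and endothelial markers 4 positive and 2 negative. None of these markers was listed at 0 in any mouse and none passed the test, and their part in the values below was not tested.

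Gene positions come from GENCODE on GRCm38, the assembly also called mm10, which the submitters' processing notes name. Cs lies on chromosome 10 from 128337734 to 128362479, Idh3a on chromosome 9 from 54586334 to 54604661, Idh3b on chromosome 2 from 130279309 to 130284547 and Idh3g on chromosome X from 73778963 to 73786897. Idh2 lies on chromosome 7 from 80094846 to 80115392 and Idh1 on chromosome 1 from 65158616 to 65186500. Ogdh is on chromosome 11 from 6291633 to 6356642, Suclg1 on chromosome 6 from 73248382 to 73276911 and Mdh2 on chromosome 5 from 135778480 to 135790398. The 3 subunits of 1 enzyme, Idh3a, Idh3b and Idh3g, are therefore on 3 chromosomes. Idh3g, Mdh2 and Idh1 each start close to a coding gene on the opposite strand, with 131 bases between the starts of Idh3g and Ssr4, 95 between Mdh2 and Styxl1, and 183 between Idh1 and Pikfyve. The annotated spans of Cs, Idh2 and Idh3b overlap those of Gm23182, Gm45203 and Nop56. The libraries were stranded, but whether strand was used in counting is not given in the sources used here, so reads of these overlaps cannot be assigned with certainty.

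RefSeq promoter windows (GRCm38.p6) were matched by symbol for 8 of the 9 members, and Idh3a was the member without one. The windows of Cs, Idh3b and Idh3g are shown, Cs because its values did not overlap between the diets, and Idh3b and Idh3g because they encode the partners of Idh3a. Each window is the 250 bases before the RefSeq start, read 5′ to 3′ on the strand of the gene, at chr10:128337477-128337726 on the plus strand for Cs, chr2:130284452-130284701 on the minus strand for Idh3b and chrX:73786898-73787147 on the minus strand for Idh3g. Capitals mark matches, on either strand, to 6 motifs, which were TCAAGGTCA (estrogen-related receptor element), GCATGCGC (NRF1 core), CCGGAAG (ETS core, as bound by GABPA), GGGCGG (GC box), CCAAT, and TGACGTCA (cAMP response element).
Cs: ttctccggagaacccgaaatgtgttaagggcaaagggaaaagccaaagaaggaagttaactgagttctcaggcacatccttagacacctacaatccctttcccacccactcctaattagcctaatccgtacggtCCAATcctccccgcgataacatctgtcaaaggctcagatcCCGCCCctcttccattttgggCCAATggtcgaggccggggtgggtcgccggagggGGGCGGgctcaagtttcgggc
Idh3b: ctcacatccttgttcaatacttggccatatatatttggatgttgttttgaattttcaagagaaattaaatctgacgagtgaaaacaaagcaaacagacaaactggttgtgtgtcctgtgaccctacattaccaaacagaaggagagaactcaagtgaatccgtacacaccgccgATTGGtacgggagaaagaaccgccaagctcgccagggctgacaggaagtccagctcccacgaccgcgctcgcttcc
Idh3g: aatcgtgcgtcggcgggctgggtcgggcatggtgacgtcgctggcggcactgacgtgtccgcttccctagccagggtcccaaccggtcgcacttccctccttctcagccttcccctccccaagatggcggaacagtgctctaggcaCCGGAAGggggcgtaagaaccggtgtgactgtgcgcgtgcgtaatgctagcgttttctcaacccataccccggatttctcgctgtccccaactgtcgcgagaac

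The window of Cs held 2 CCAAT matches, at -116 and -55 bases from the start, and 2 GC boxes, at -76 and -21. That of Idh3b held 1 CCAAT match on the opposite strand at -76, and that of Idh3g held 1 ETS core at -104. The GENCODE span of Idh3b reaches to 130284547, past the RefSeq start. The part of its window nearest that start, with the match, therefore lies inside the span. The windows were 55.2%, 46.8% and 62.8% G and C. Over the 8 members with a window, the GC box was found in 5, CCAAT in 5, the cAMP response element in 2 (Mdh2 and Ogdh), the ETS core in 1 (Idh3g), the NRF1 core in 1 (Ogdh) and the estrogen-related receptor element in 0. Of all 32851 windows of this length, 32.7% held the GC box, 33.8% CCAAT, 1.55% the cAMP response element, 6.91% the ETS core, 2.26% the NRF1 core and 0.387% the estrogen-related receptor element. Some genes have several windows, as Ogdh and Idh1 do, and a member was counted if any of its windows matched. The percentages are by window, so the counts by member are not on the same footing. By window, the 14 windows of the members held the GC box in 7, CCAAT in 8 and the cAMP response element in 4. Windows of 1 gene are not separate observations, and those 4 came from Mdh2 and Ogdh alone. Of the 14 windows, the ETS core was in 1, the NRF1 core in 2 and the estrogen-related receptor element in 0. A match here describes the letters only.

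The largest difference between the diets among the members was in Idh3a, the catalytic subunit of NAD-linked isocitrate dehydrogenase. Its scaled read counts were 1228 in F129, 1037 in F2212, 1048 in F7111 and 1467 in F2110 on the Control diet, and 2028 in H1126, 1519 in H828, 2452 in H817 and 1879 in H1315 on the Low AA diet. Every Low AA mouse lay above every Control mouse, but the lowest Low AA mouse, H828, was only 52 scaled reads above the highest Control mouse, F2110. The means were 1195 ± 201 (SD, n = 4) and 1970 ± 386 (SD, n = 4), a log2 fold change of 0.71 with a standard error of 0.16 and a 95% interval from 0.36 to 1.07. The difference did not pass (adjusted p = 0.102, limma), and Idh3a was at place 137 of 11784 by p. Without H817, which had the highest value, the log2 fold change was 0.60 (adjusted p = 0.302, limma), and without H828 it was 0.83 (adjusted p = 0.0877, limma). Without F2212 it was 0.65 (adjusted p = 0.139, limma).

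The other subunits of the same enzyme did not separate the diets. Idh3b, a subunit needed for activity of the complex, had 4430, 4157, 4010 and 4235 scaled reads in Control mice F129, F2212, F7111 and F2110. It had 4262, 3949, 4266 and 4273 in Low AA mice H1126, H828, H817 and H1315. Both diets covered nearly the same range, and Idh3b varied least between mice of all members, with a coefficient of variation of 4.16% on the Control diet and 3.80% on the Low AA diet. Its log2 fold change was -0.0069 with a 95% interval from -0.19 to 0.18 (adjusted p = 0.987, limma). Idh3g, the regulatory gamma subunit, had 1859, 1841, 1479 and 1854 scaled reads in the Control mice and 1963, 1724, 1928 and 2247 in the Low AA mice, in the same order. Control mouse F7111 was low and Low AA mouse H1315 was high, and the remaining values of the diets were interleaved. Its log2 fold change was 0.16 with an interval from -0.10 to 0.42 (adjusted p = 0.659, limma).

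**Figure D1:**
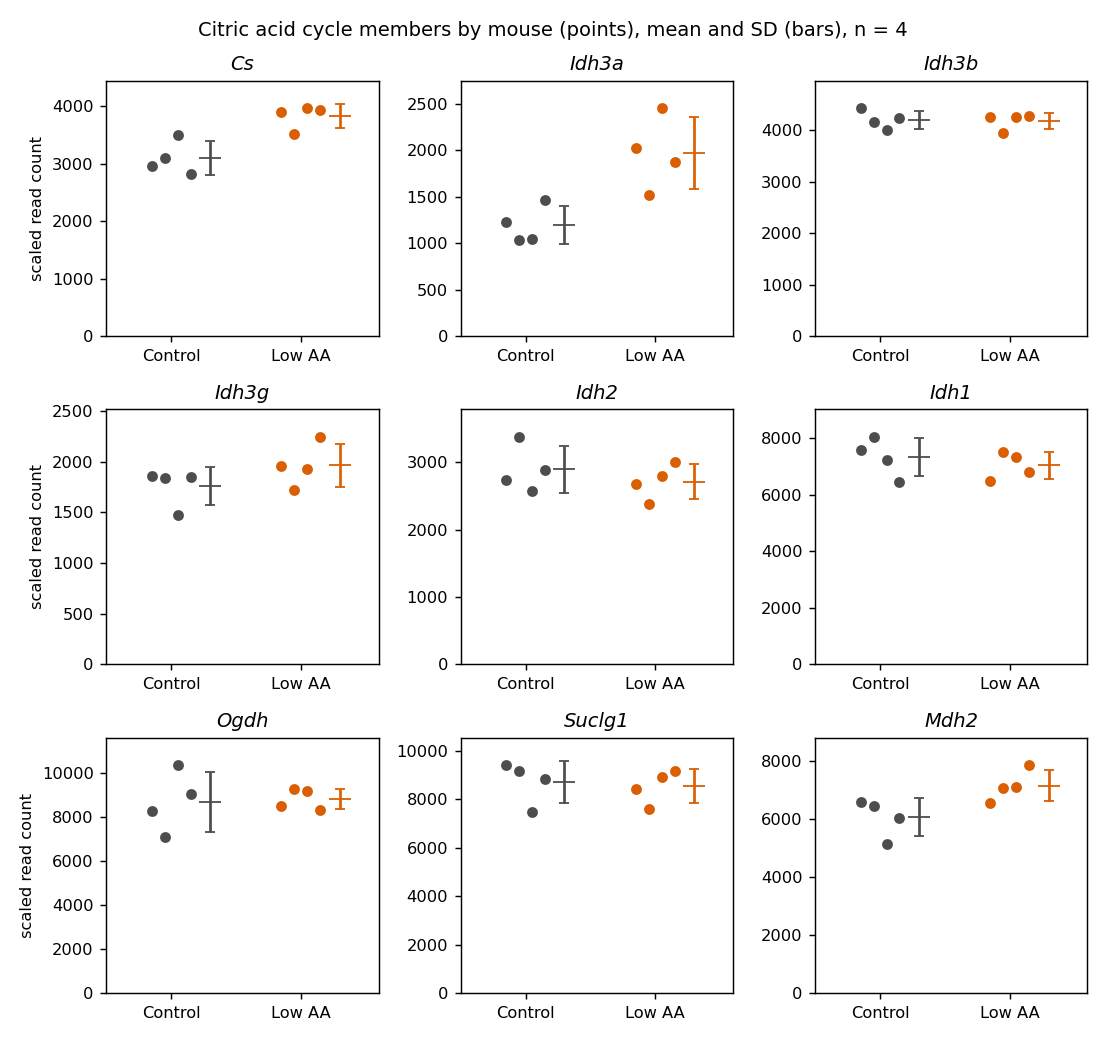
Scaled read counts of the 9 members (vertical axes, each from 0) in the 4 Control and 4 Low AA mice. Points are mice and the bars beside them give the mean and SD. In Idh3a and Cs all Low AA points lie above all Control points, and in the other 7 panels the diets overlap.

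Cs, which opens the cycle, also had no overlap between the diets. It had 2957 scaled reads in F129, 3105 in F2212, 3506 in F7111 and 2816 in F2110, against 3905 in H1126, 3516 in H828, 3963 in H817 and 3934 in H1315. The gap between the diets was 10 scaled reads, between F7111, the highest Control mouse, and H828, the lowest Low AA mouse, so the separation of the groups by rank is narrow. The means were 3096 ± 298 and 3830 ± 210 (SD, n = 4 each), and the log2 fold change was 0.31 with a standard error of 0.10 and a 95% interval from 0.09 to 0.53 (adjusted p = 0.226, limma). When each mouse was left out in turn the log2 fold change ran from 0.27 to 0.37 and the limma adjusted p from 0.133 to 0.546.

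Mdh2, which regenerates oxaloacetate, had 6615, 6466, 5155 and 6062 scaled reads in Control mice F129, F2212, F7111 and F2110. The Low AA mice H1126, H828, H817 and H1315 had 6573, 7098, 7123 and 7868. All but H1126 lay above every Control mouse, and H1126 was 42 scaled reads below F129. The log2 fold change was 0.24 with a standard error of 0.11 and an interval from 0.0048 to 0.48 (adjusted p = 0.416, limma). Without Control mouse F7111, the lowest of the 8, it was 0.17 (adjusted p = 0.473, limma).

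The 3 members with an unadjusted p under 0.05 were Idh3a, Cs and Mdh2. Members without overlap between the diets were 2 with higher values on the Low AA diet and 0 with lower, where all genes gave 3.26% higher and 3.55% lower. The members were proposed with earlier results of these mice known, so these counts are descriptions. Over the 9 members the log2 fold change was positive in 5 and negative in 4, with a median of 0.03, and the median of all genes was 0.0023. The median of the members changed sign with single mice, from -0.0039 without F2212 to 0.08 without F7111.

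The NADP-linked isocitrate dehydrogenases, which supply NADPH, had lower means on the Low AA diet by amounts within the spread between mice. Idh2 had 2746, 3381, 2574 and 2891 scaled reads in Control mice F129, F2212, F7111 and F2110, and 2680, 2376, 2804 and 3006 in Low AA mice H1126, H828, H817 and H1315. The highest value was in F2212 and the lowest in H828, with the other 6 mice mixed between them. The log2 fold change of Idh2 was -0.09 with an interval from -0.34 to 0.16 (adjusted p = 0.824, limma), and without F2212 it was -0.014. Idh1 had 7582, 8048, 7238 and 6466 scaled reads in the Control mice and 6487, 7523, 7347 and 6818 in the Low AA mice, in the same order. Its lowest Control and lowest Low AA values were nearly equal. Its log2 fold change was -0.06 with an interval from -0.28 to 0.17 (adjusted p = 0.887, limma), and without F2212 it was -0.0098.

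Ogdh and Suclg1, which act after isocitrate, were close to equal in mean. Ogdh had 8262, 7110, 10357 and 9067 scaled reads in Control mice F129, F2212, F7111 and F2110, against 8483, 9258, 9194 and 8344 in Low AA mice H1126, H828, H817 and H1315. The Control diet held both the lowest and the highest value, and its coefficient of variation was 15.7% against 5.37% on the Low AA diet. The log2 fold change of Ogdh was 0.03 with an interval from -0.24 to 0.30 (adjusted p = 0.950, limma), and without F2212 it was -0.06. Suclg1 had 9406, 9166, 7469 and 8854 scaled reads in the Control mice and 8424, 7590, 8942 and 9186 in the Low AA mice. The 2 lowest values were 1 from each diet, F7111 and H828. Its log2 fold change was -0.03 with an interval from -0.27 to 0.21 (adjusted p = 0.949, limma).

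**Figure D2:**
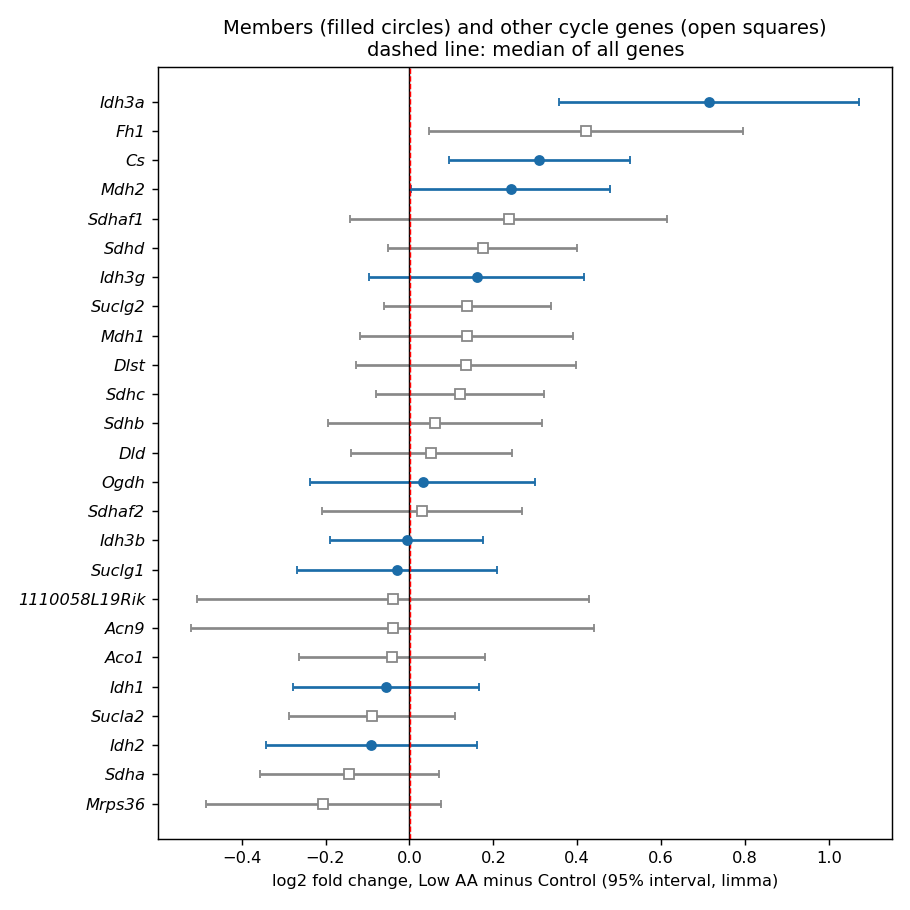
Log2 fold change of Low AA over Control (horizontal axis, limma) with its 95% interval for the 9 members (filled circles) and 16 other genes of the cycle (open squares), 1 gene per row in order of size. Idh3a at 0.71 and Fh1 at 0.42 are the highest of those drawn, and most intervals include 0.

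Single mice shifted several members at once. In the Low AA group H828 had the lowest value for 6 of the 9 members, yet the highest for 2, Idh1 and Ogdh. H1315 had the highest value for 5 and the lowest for 1, Ogdh. In the Control group F7111 had the lowest value for 5 members, Idh2, Idh3b, Idh3g, Suclg1 and Mdh2, yet the highest for Cs and Ogdh. The mean deviation of the 9 members from their gene means, on the log2 scale, was -0.04 in F129, -0.06 in F2212, -0.14 in F7111 and -0.05 in F2110. It was 0.05 in H1126, -0.03 in H828, 0.14 in H817 and 0.13 in H1315. H828 was thus nearest to the Control mice and just above F129. This mean does not describe all members alike. The log2 fold changes were 0.71 in Idh3a, 0.31 in Cs and 0.24 in Mdh2, and between -0.09 and 0.16 in the rest. The coefficient of variation of the members had a median of 10.6% on the Control diet and 7.43% on the Low AA diet, against 15.9% and 11.9% over all genes. Idh3a was the member above the median of all genes on each diet, at 16.9% and 19.6%. All members were among the more abundant genes of the table, with mean values between percentiles 80.5 and 96.4.

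**Figure D3:**
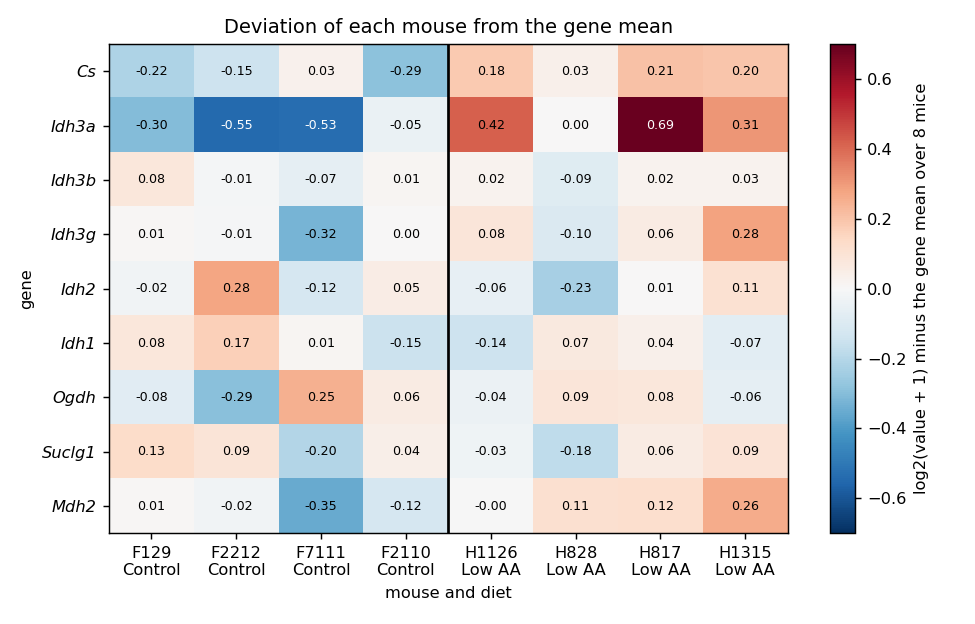
Log2(value + 1) of each member (rows, in cycle order) in each mouse (columns, Control left of the line and Low AA right of it) minus the mean of the gene over the 8 mice, as colour and number. Idh3a has the widest range, from -0.55 in F2212 to 0.69 in H817, and Idh3b the narrowest.

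Ratios between members in the same mouse do not depend on the scaling if it was 1 factor for each library. Of these ratios, 6 were set out by mouse without a test. The log2 ratio of Idh3a to Idh3g was -0.60 in F129, -0.83 in F2212, -0.50 in F7111 and -0.34 in F2110 on the Control diet. On the Low AA diet it was 0.05 in H1126, -0.18 in H828, 0.35 in H817 and -0.26 in H1315. The diets did not overlap for this ratio, with means of -0.56 ± 0.21 and -0.01 ± 0.27 (SD, n = 4 each). The difference of 0.55 ran from 0.43 to 0.64 when single mice were left out. It rests on the same Idh3a values that already separated the diets, so it is no separate result. The log2 ratio of Idh3b to Idh3g, between the other subunits, overlapped, with means of 1.26 ± 0.12 and 1.10 ± 0.12. The ratio of Idh2 to Idh1, the mitochondrial against the cytosolic NADP-linked enzyme, had means of -1.34 ± 0.16 and -1.38 ± 0.21, and the sign of its difference changed when single mice were left out. Relative to Cs, Suclg1 had a mean log2 ratio of 1.49 ± 0.27 on the Control and 1.15 ± 0.06 on the Low AA diet, and the groups overlapped because of Control mouse F7111 at 1.09. The ratios of Ogdh to Cs and of Mdh2 to Cs overlapped as well.

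**Figure D4:**
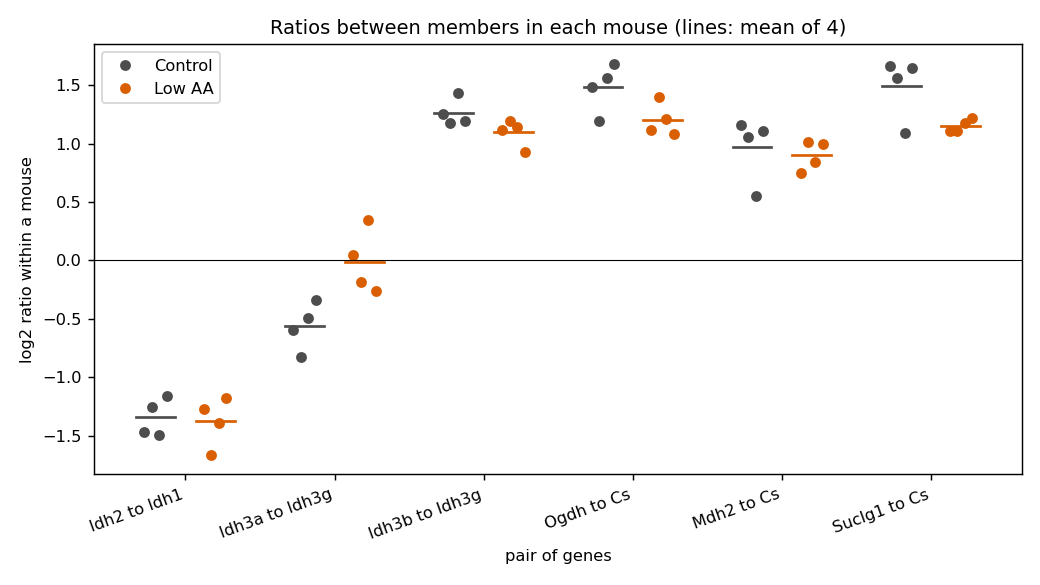
Log2 ratio of 2 members within each mouse (vertical axis) for 6 pairs (horizontal axis), with Control mice in grey, Low AA mice in orange and lines at the mean of 4. For Idh3a to Idh3g all Low AA mice, from -0.26 to 0.35, lie above all Control mice, from -0.83 to -0.34, and the other 5 pairs overlap.

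Levels of different genes were compared per kilobase of the principal coding transcript in GENCODE, since longer transcripts give more reads. In the Control mice the order ran from Suclg1, with 5743 ± 570 scaled reads per kilobase (SD, n = 4), through Mdh2 with 4172 ± 451, Idh1 with 3186 ± 290, Idh3b with 2604 ± 108, Ogdh with 2108 ± 331, Idh2 with 1661 ± 199, Idh3g with 1321 ± 140 and Cs with 1058 ± 102 to Idh3a with 497 ± 83.8. Neighbours whose ranges overlapped in the Control mice were Idh3b and Ogdh, Ogdh and Idh2, and Idh3g and Cs. The other neighbours were in the same order in all 8 mice. Idh3a was last in all 8 mice and had 820 ± 161 scaled reads per kilobase on the Low AA diet. Its share of the summed per-kilobase level of the 3 subunits was 11.2% ± 1.42 on the Control diet, from 9.84% to 13.2%, and 16.7% ± 2.44 on the Low AA diet, from 14.5% to 19.97%. This share uses the same Idh3a values again and is no separate result. The transcript lengths assume 1 isoform for each gene.

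**Figure D5:**
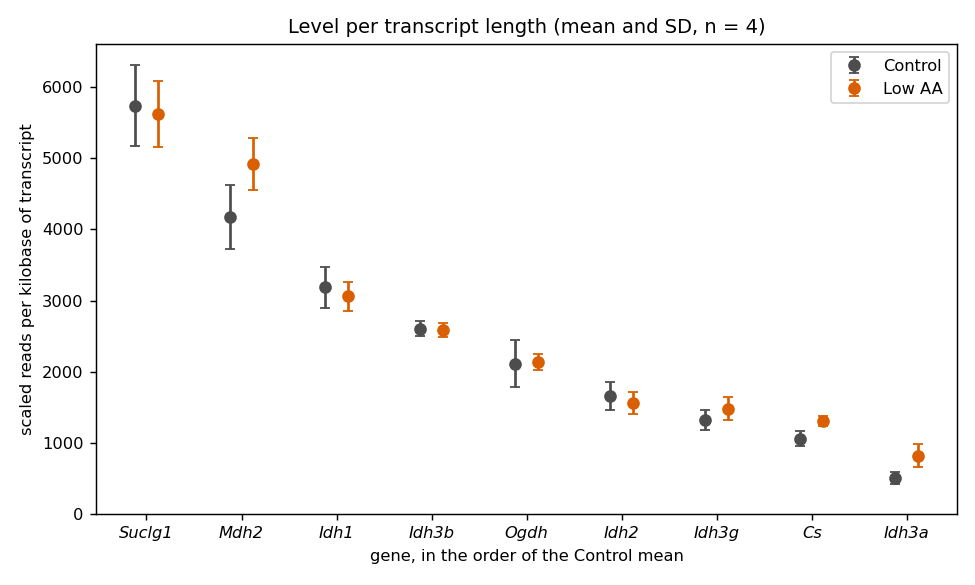
Scaled reads per kilobase of transcript (vertical axis, from 0) for each member (horizontal axis, in the order of the Control mean), as mean and SD of 4 mice per diet. Suclg1 is highest at 5743 and Idh3a lowest at 497 in the Control mice, and Idh3a has 820 in the Low AA mice.

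The rest of the cycle was read from a list of 17 further enzymes, subunits and assembly factors, of which 16 were listed, with Sdhaf3 and Sdhaf4 under the older symbols Acn9 and 1110058L19Rik. None of the 16 passed the limma test in either direction and 1, Fh1, had an unadjusted p under 0.05, their median log2 fold change was 0.06, and 10 were positive and 6 negative. Their median ran from 0.030 without F7111 to 0.12 without H828. The cytosolic Aco1, which also acts as an iron sensor, had a log2 fold change of -0.04 (adjusted p = 0.921, limma).

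Fh1, fumarase, had a log2 fold change of 0.42 with an interval from 0.05 to 0.80 (adjusted p = 0.357, limma), with 7593 to 12351 scaled reads on the Control diet and 11037 to 15264 on the Low AA diet. The subunits of succinate dehydrogenase, the enzyme shared with the respiratory chain, went both ways, with Sdha at -0.14, Sdhb at 0.06, Sdhc at 0.12 and Sdhd at 0.17 on the log2 scale. The partners of Ogdh in its complex, Dlst and Dld, had log2 fold changes of 0.14 and 0.05, and Mrps36, which links Dld to the complex, had -0.20. The partners of Suclg1, which set the nucleotide the ligase uses, were Sucla2 at -0.09 and Suclg2 at 0.14. Mdh1, the cytosolic malate dehydrogenase, had 0.14, and the assembly factors Sdhaf1, Sdhaf2, Acn9 and 1110058L19Rik had 0.24, 0.03, -0.04 and -0.04. Each of these values had an interval that included 0, other than that of Fh1. The annotated span of Fh1 overlaps that of the coding gene Kmo on the opposite strand, so its reads cannot be assigned with certainty. Spans of Sucla2, Sdha, Mdh1, Sdhaf1, Sdhaf2 and 1110058L19Rik also overlap those of other genes.

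Pyruvate entry was covered by 15 listed genes of 16, and 0 passed the limma test in either direction, with 3 at an unadjusted p under 0.05 and a median log2 fold change of 0.09. The sign of this median turned with 1 mouse, since it was -0.029 without F2212, and it was 0.022 without F129. The smallest p values were those of Dlat, the E2 component of pyruvate dehydrogenase, and of Brp44 (Mpc2), a subunit of the mitochondrial pyruvate carrier. Dlat had 1059 to 1177 scaled reads on the Control diet and 1266 to 1410 on the Low AA diet, with no overlap. Its log2 fold change was 0.29 (adjusted p = 0.198, limma). Dlat was picked by its p, so its lack of overlap is no separate result. Brp44 had a log2 fold change of 0.32 (adjusted p = 0.299, limma). Pdk4, a kinase that switches pyruvate dehydrogenase off, was named after its values were seen. Its values ran from 545 to 2419 on the Control diet and from 1102 to 5599 on the Low AA diet, with a log2 fold change of 1.40 and an interval from 0.22 to 2.57 (adjusted p = 0.324, limma).

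Of 22 genes that feed or drain the cycle, 21 were listed and 0 passed, with 2 at an unadjusted p under 0.05 and a median log2 fold change of -0.06. This median was -0.019 without H828 and -0.11 without F2212. Slc25a12, an aspartate-glutamate carrier, had 495 to 705 scaled reads on the Control and 779 to 874 on the Low AA diet, with a log2 fold change of 0.50 (adjusted p = 0.133, limma). Slc25a1, which exports citrate from mitochondria, had 3300 to 4381 and 2754 to 3115, a log2 fold change of -0.31 (adjusted p = 0.283, limma). Neither gene overlapped between the diets. They were named for the smallest p values of the list, so this is no separate result. Of the 21 genes, 1 was higher and 1 lower without overlap, where all genes gave 3.26% higher and 3.55% lower.

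Among NADPH suppliers other than Idh1 and Idh2, 8 of 12 were listed and 0 passed, with 2 at an unadjusted p under 0.05 and a median log2 fold change of 0.11. With single mice left out this median ran from 0.072 without F2212 to 0.14 without H828. Nnt, the proton-driven transhydrogenase of mitochondria, had 1858 to 1957 scaled reads on the Control diet and 2247 to 3094 on the Low AA diet, a log2 fold change of 0.43 (adjusted p = 0.146, limma). C57BL/6J mice carry a deletion within Nnt that leaves no working protein, so its value is a transcript level only. G6pdx, the first enzyme of the pentose phosphate pathway, had a log2 fold change of 0.38 (adjusted p = 0.284, limma).

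Regulators of mitochondrial biogenesis and genes that reflect mitochondrial content were 21, all listed, with 0 passing, 4 at an unadjusted p under 0.05, 18 positive and 3 negative and a median log2 fold change of 0.12. With single mice left out this median ran from 0.089 without F2212 to 0.19 without F2110. Esrra, the nuclear receptor ERR alpha that drives many genes of the cycle, had 625 to 813 scaled reads on the Control diet and 823 to 1012 on the Low AA diet, a log2 fold change of 0.34 (adjusted p = 0.276, limma). Vdac2, a channel of the outer membrane, had 0.31 (adjusted p = 0.220, limma). Of enzymes on side paths of 2-oxoglutarate and related acids, 5 of 7 symbols were listed and 0 passed, with 1 at an unadjusted p under 0.05 and a median of 0.06. The sign of that median also turned with single mice, to -0.077 without F2212, -0.019 without F129 and -0.0040 without F7111. Oplah, which makes glutamate from 5-oxoproline, had a log2 fold change of 0.24 (adjusted p = 0.348, limma) and Aadat, an aminotransferase of lysine breakdown, -0.30 (adjusted p = 0.559, limma). Beside these medians that of all genes was 0.0023, and 50.5% of all genes were positive.

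Genes outside the lists were ranked by how closely their profile over the 8 mice followed the mean profile of the 9 members, by the root mean square difference of centred log2 values. Among the 11073 genes that varied at least as much as this profile, the nearest 5 were Nubp1, Rqcd1, Cyc1, Eif4a1 and Atp5a1, with differences of 0.039, 0.044, 0.045, 0.049 and 0.051. Nubp1 is an iron-sulfur cluster assembly factor, Cyc1 a subunit of respiratory complex III, Atp5a1 the alpha subunit of ATP synthase and Eif4a1 a translation initiation helicase. None of the 5 passed the test. Cyc1 had 4555 to 5031 scaled reads on the Control diet and 4805 to 5800 on the Low AA diet, with a log2 fold change of 0.11 (adjusted p = 0.733, limma). Eif4a1 overlapped between the diets as well. Nubp1 did not, with 606 to 643 on the Control and 648 to 747 on the Low AA diet. Neither did Rqcd1, with 546 to 579 and 612 to 655, or Atp5a1, with 29700 to 32604 and 33064 to 35531. The 5 were picked for following the mean profile, in which Idh3a, Cs and Mdh2 had the largest differences between the diets. Their separation is therefore no separate result.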

How the data were processed

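Poly(A) RNA from the liver of 8 mice, 4 per diet, was sequenced, and each mouse is 1 replicate. Per the labels, bcl2fastq 1.8.2, STAR 2.5.0a, RSEM 1.2.6, edgeR 3.10.5 and R 3.2.1 with build mm10 were used, with no role given. The authors deposited 1 table with a signal for each gene and mouse, whole numbers that carry the trace of counts multiplied by a factor and rounded. The scaling is not given in the sources used here, exact depth is unknown, and count models were not applied. The deposited table also holds the authors' signed fold change, a score, and their FDR, a q-value or adjusted p-value. Neither was used. The table holds no gene at low values throughout.

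The test was limma 3.58.1 (R 4.3.3) on log2(value + 1), with moderation that follows the mean, over 11784 genes with no filter, and adjusted p-values were called under 0.05. The fit was tested on simulated data. The members and lists were chosen with earlier results of these mice known. Older symbols were matched through RefSeq synonyms, and 6 list genes were found this way. Named genes are the 9 members, the listed cycle genes, the 2 with the smallest p in each other list, the 5 nearest profiles, and markers of other cell types; Pdk4 was named after its values were seen. Of 12 pancreas, 6 macrophage, 6 stellate, 6 endothelial, 5 adipose and 6 muscle markers, 1, 6, 6, 6, 0 and 0 were listed, and none passed. Alternatives were TMM factors, a pseudocount of 0.1 or 5, a restriction to the 8000 most abundant genes, equal column totals, no trend, a threshold of 0.1, each mouse left out and, added after the data were seen, robust moderation. Figures were drawn with matplotlib 3.10.9. Items withheld from the lists are not reported here.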

Additional observations from a re-analysis of the deposited data

Results flagged for a closer look

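In 32 groups of 4 mice examined, over the 9 members, 6 ratios and the mean profile in each diet, 4 had 1 mouse far from the other 3, where chance gives about 1 in 20. Low AA mouse H828 was below the other Low AA mice for Cs, at 11.78 on the log2 scale against 11.93 to 11.95 (gap over range 0.877). The same mouse was below the others for Idh3b, at 11.95 against 12.06 in each (gap over range 0.967). Control mouse F7111 was below the other Control mice for Idh3g, at 10.53 against 10.85 to 10.86 (gap over range 0.957), and for the log2 ratio of Mdh2 to Cs, at 0.56 against 1.06 to 1.16 (gap over range 0.8293). Without F7111 the log2 fold change of Idh3g was 0.08 in place of 0.16.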

How the results depend on the processing

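None of the 9 members passed an adjusted p under 0.05 in any of the 15 alternative fits, 7 with other settings and 8 that leave out a mouse. The threshold of 0.1 was applied to the fit reported only, and none passed it there. In the alternative fits Idh3a was under 0.1 without H828 and with robust moderation. Of 135 recomputed fold changes of members 130 kept their direction, and the 5 that changed sign were near 0. The restriction to 8000 genes, the fit with no trend and robust moderation leave each fold change as it was. Their direction was thus fixed in advance, and the count of 130 overstates stability. All 5 sign changes came with a mouse left out. They were Idh3b at 0.021 without H828 and 0.018 without F129, Suclg1 at 0.026 without H828 and 0.0085 without F129, and Ogdh at -0.061 without F2212. With single mice left out Idh3b ran from -0.030 to 0.021, Suclg1 from -0.10 to 0.026 and Ogdh from -0.061 to 0.12. The limma adjusted p of Idh3a ran from 0.0877 to 0.302 and was 0.098 with robust moderation. Over all genes, 47 were called in the fit reported, 19 among the 8000 genes with the highest mean, 30 with no mean-variance trend, 132 at an adjusted p under 0.1, and 16 to 77 with single mice left out, the highest without Control mouse F2212. The causes of these shifts were not tested. No paired analysis was possible because the mouse codes are not shared between the diets. With 4 mice per diet, the intervals given for the members limit what could be detected.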
